A study of Zea mays with 168 samples.

Results

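The cross between the maize inbred lines 002 and 005 was described from 50 samples of a series of 84 slides with 2 samples each, all of primary roots collected 3.5 days after germination. They were all samples whose title gives the genotype 002x005, 005x002, 002x002 or 005x005. The hybrid 002x005 had 8 samples, its reciprocal hybrid 005x002 had 7, the inbred line 002x002 (UH002 in the deposited notes) had 17 and the inbred line 005x005 (UH005) had 18. The labels name no treatment or transgene for any of the 4 genotypes, and about 20 roots were pooled for each sample, so that a sample is an average over seedlings. Slides 26 and 472 held the same hybridisation (Pearson's r = 0.987 over the log ratios of all tested spots) and were averaged, which left 48 separate samples.

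Maize is the classical plant for the study of heterosis, the greater size and vigour of hybrids than of their inbred parents, which is already visible in the primary root of the seedling. Inbred maize lines differ in sequence and in gene content, and a hybrid carries a copy of each gene from both. Where transcript amounts simply add up, the hybrid lies at the mean of its parents, the midparent value, and departures from it are called non-additive. The midparent value used here was the mean of the log2 values of the lines. Where the lines differ, that lies below the log2 value of their mean amount. A pair of reciprocal hybrids has the same nuclear genotype in the root and differs in which parent was the mother, and with it in the cytoplasm inherited.

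RNA was measured on spotted cDNA arrays read in 2 colours, with the cDNA of 1 sample in Cy3 and that of another in Cy5 on each slide. The cross was hybridised within itself on 12 slides with 24 samples: 7 of 002x005, 7 of 005x002, 4 of 002x002 and 6 of 005x005. The other 12 samples of 002x002 and 12 of 005x005 shared slides with hybrids of other crosses. Slides 26 and 29 set 002x005 against 002x002, slides 2, 27 and 33 set 002x005 against 005x005, slides 474 and 476 set 005x002 against 002x002, slides 1, 36 and 60 set 005x002 against 005x005, and slides 471 and 919 set 002x005 against 005x002. No slide carried both lines, so their difference was measured through the hybrids. All of slides 1, 36 and 60 had 005x002 in Cy3, while each other pairing had its dyes swapped on at least 1 slide. A dye effect on slides 1, 36 and 60 could be separated from genotype only through the dye term of the fit.

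Each slide carried 12160 spots, of which 11838 with 11431 identifiers were tested. The identifiers are those of expressed sequence tags, and only 8 of them were paired with a gene symbol in the RefSeq table of the B73 assembly Zm-B73-REFERENCE-NAM-5.0. The spots are therefore given by identifier and spot number, and the lists of antioxidant, ribosomal, histone, cytoskeletal, cell wall, aquaporin, heat shock and glycolysis genes, like the markers of leaf, endosperm and embryo, had no member that could be named. The tissue label could for that reason not be set against marker genes. All differences below are log2 differences from the fit of the deposited log2 values of the 2 channels of each slide, where 1 unit is a 2-fold change if the deposited scale is taken at its word. A spot was called where limma's p-value, adjusted by Benjamini-Hochberg over all 11838 spots, was under 0.05.

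Signal differed widely between slides. The share of spots brighter than all but 2.5% of the unnamed spots at the edges of the print blocks had a median of 60.4% over the 24 channels and ran from 10.9% to 89.6%; both channels of slide 27 were lowest, at 10.9% for 002x005 and 14.1% for 005x005. On slide 1 the value column of each channel followed the scans of the other channel more closely than its own, with rank correlations of 0.894 (own) and 0.988 (other) for 005x002 and 0.801 and 0.996 for 005x005. An exchange of the 2 channels of slide 1 was not settled by the labels, and the calls, the group of 25 spots and the tallies of slides below are also given without slide 1 or with its ratio turned. Slides that repeated a pairing resembled each other little over all spots: the 4 pairs of slides with the same dyes had Pearson correlations of their log ratios between -0.12 and 0.26, and the 5 pairs with swapped dyes between -0.08 and 0.23.

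The comparison of line 002x002 with line 005x005 gave the only call among the 5 comparisons of genotypes, 1 of 11838 spots (0.00845%). Before adjustment 588 (4.97%) were under 0.05, 314 higher and 274 lower in 002x002. The call was the identifier BG841578, which was far lower in 002x002. It was printed at 2 spots. At spot 10448 its level, taken as the log2 value minus the median of its channel, was 0.34, 0.63, 0.71 and 1.12 in the 4 samples of 002x002 on the slides of the cross, against a lowest of 2.82, a median of 3.62 and a highest of 4.06 in the 6 samples of 005x005. The groups did not overlap, at a spot chosen by its p on these same samples. The fitted difference was -3.24 ± 0.42 (SE; adjusted p = 0.0236, limma).

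At its other spot, 3396, BG841578 had levels of -0.02, -0.01, 0.26 and 0.33 in 002x002, against 0.07 to 2.31 with a median of 1.63 in 005x005. Here the lowest 005x005 sample, on the dim slide 27, fell among those of 002x002. The fitted difference was -1.80 ± 0.33 (adjusted p = 0.147), in the same direction and smaller. Over all 402 identifiers printed more than once, the line differences at repeated spots had a rank correlation of only 0.0896, so the agreement in sign at BG841578 is given as a value of this identifier alone.

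The hybrids lay between the lines at BG841578. At spot 10448 the levels ran from 1.52 to 3.16 with a median of 2.16 in the 7 samples of 002x005, and from 1.98 to 3.90 with a median of 3.35 in the 7 samples of 005x002. Every sample of either hybrid was above every sample of 002x002, while 3 of the ranges, those of both hybrids and of 005x005, met or overlapped. On single slides 002x005 exceeded 002x002 by 1.24 and 2.81, and 005x002 exceeded it by 1.34 and 3.16. Against 005x005 the ratios were all negative, at -2.34, -0.69 and -1.70 for 002x005 and -1.07, -0.86 and -0.14 for 005x002. The -1.07 is the ratio of slide 1, which would be 1.07 with its channels exchanged. On the slides that carried both hybrids 002x005 was lower by 0.75 and 1.18. From the fit, 002x005 was 1.51 and 005x002 was 0.69 below 005x005. The deviations from the midparent value, a mean of log2 values, were 0.11 ± 0.26 (adjusted p = 1.00) and 0.93 ± 0.27 (adjusted p = 0.870). Taken from the mean amount of the lines, both deviations would be lower.

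The call depended on single slides. It was lost without slide 1 (-3.18, adjusted p = 0.0792), with the channels of slide 1 exchanged (-2.91, adjusted p = 0.292) and without slide 2, 26, 29, 36, 471 or 919, where adjusted p lay between 0.0526 and 0.125. It was kept without slide 27, 33, 60, 474 or 476. The difference was negative in all 24 other settings, between -3.72 and -1.22.

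**Figure D1:**
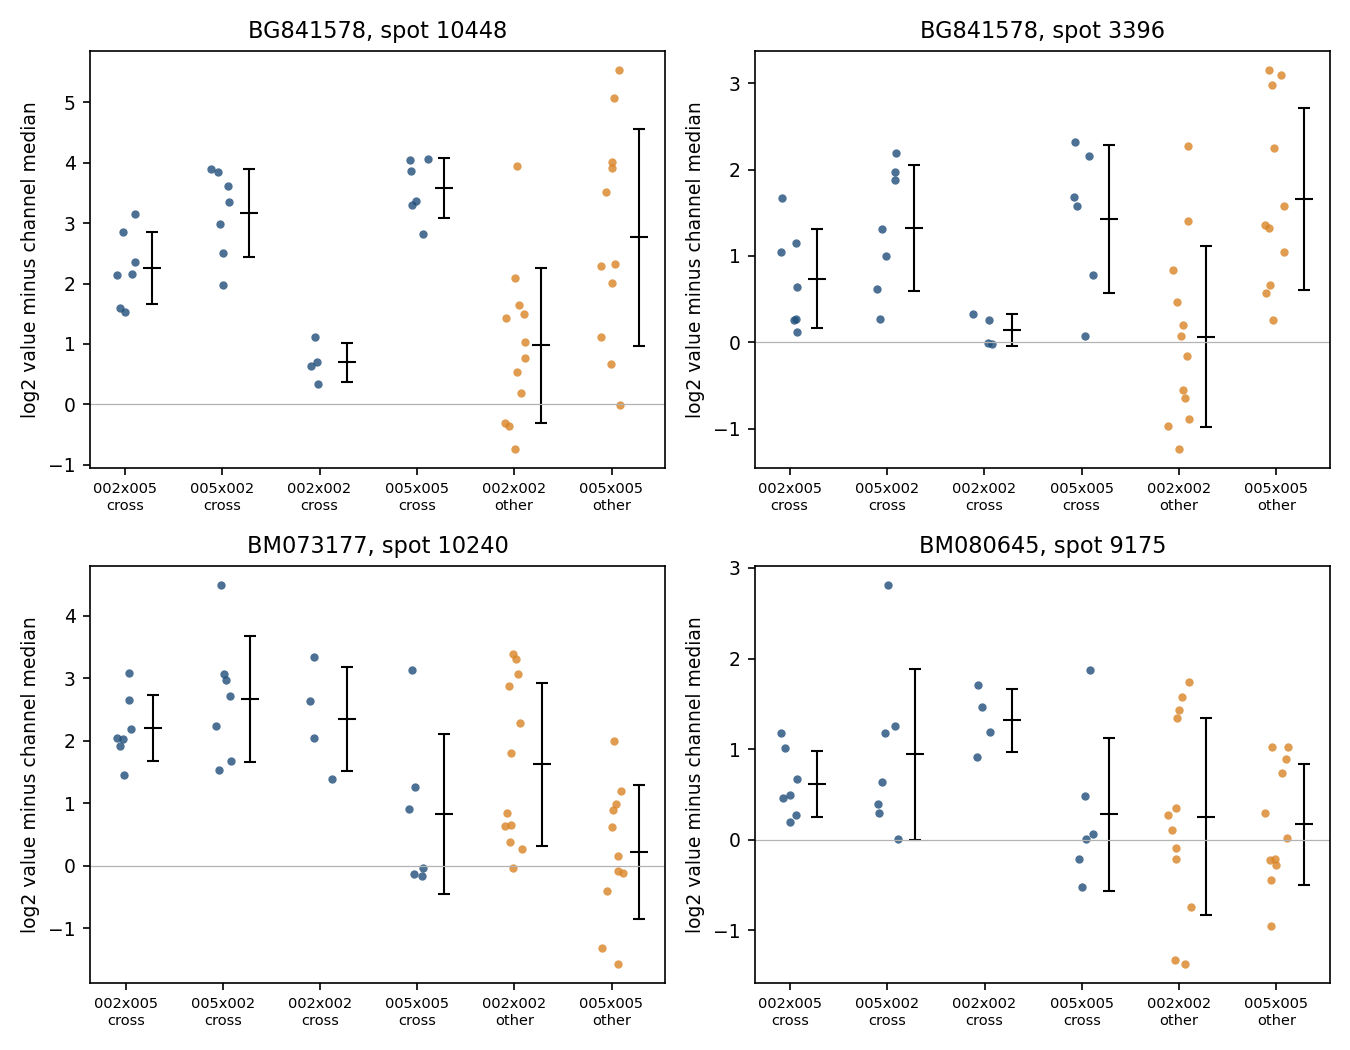
Level of 4 spots (vertical axis, deposited log2 value minus the median of its channel) in every sample of the 4 genotypes. Blue points are samples on the 12 slides of the cross and orange points are samples of the lines on other slides; the black marks give the mean and the SD. At spot 10448 of BG841578 the 002x002 samples of the cross lie at or below 1.12 and all others of the cross at or above 1.52. At BM073177 the hybrid samples lie within the range of 002x002 on these slides, except the 005x002 sample of slide 1 at 4.50.

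The slides outside the cross offered a check with other samples. There the line samples were paired with hybrids of other crosses, and a fit over 68 slides gave an estimate of the line difference with no sample in common, with a median SE of 0.29 against 0.20 on the slides of the cross. No outside slide carried both lines, so that estimate ran through the other hybrids and the other inbred lines on these slides. At spot 10448 of BG841578 the difference outside was -1.22 ± 0.54 (unadjusted p = 0.0275) and at spot 3396 -1.25 ± 0.38 (unadjusted p = 0.00183). Levels at spot 10448 there had a median of 0.90 in 12 samples of 002x002 and 2.32 in 11 samples of 005x005 (1 more, on a slide left out of the fit, was not used), with wide and overlapping ranges of -0.74 to 3.94 and -0.004 to 5.54. On the outside slides alone none was called (smallest adjusted p = 0.710), with 816 of the spots (6.89%) under 0.05 before adjustment.

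The spots next to BG841578 in order of p in each direction missed the threshold. BM073177 was 1.79 ± 0.26 higher in 002x002 (adjusted p = 0.0501) and 1.84 ± 0.54 higher on the outside slides (unadjusted p = 0.00113). BM080645 was 1.31 ± 0.20 higher (adjusted p = 0.0506) and 0.98 ± 0.37 higher outside (unadjusted p = 0.00978). AW231563 was 1.17 ± 0.20 higher (adjusted p = 0.108) and 1.35 ± 0.57 higher outside (unadjusted p = 0.0208). In the other direction BG840875 was lower in 002x002, at -2.21 ± 0.36 (adjusted p = 0.0767), but only -0.37 ± 0.49 outside (unadjusted p = 0.452).

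The levels of the lines at BG840875 did not overlap on the slides of the cross. They were 0.26, 0.29, 0.32 and 0.46 in 002x002, against 1.51 to 3.80 with a median of 2.54 in 005x005. BG840875 was chosen by its p on these same samples, so this is a description and no test. The share of all spots without overlap was not counted. Both hybrids lay above 002x002, from 1.03 to 1.91 in 002x005 and from 1.20 to 2.34 in 005x002. On other slides its channel levels averaged 0.55 ± 1.34 in 002x002 (SD, n = 12) and 2.21 ± 1.36 in 005x005 (SD, n = 11). The fit of the ratios of all 68 outside slides, most of which held neither line, gave the -0.37 above.

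At BM080645, levels were 0.91, 1.19, 1.47 and 1.71 in 002x002, against -0.52 to 1.87 with a median of 0.03 in 005x005. The 005x005 sample of slide 1 was the only one of its group above 0.48. Ratios on single slides were more even than levels: 002x005 was below 002x002 by 0.73 and 0.73, 005x002 was below it by 0.84 and 0.43, and all 6 ratios of a hybrid over 005x005 were positive, from 0.20 to 1.11. That of slide 1, 0.93, would be -0.93 with its channels exchanged. Both hybrids were near the midparent value, with 002x005 0.60 and 005x002 0.65 above 005x005.

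**Figure D2:**
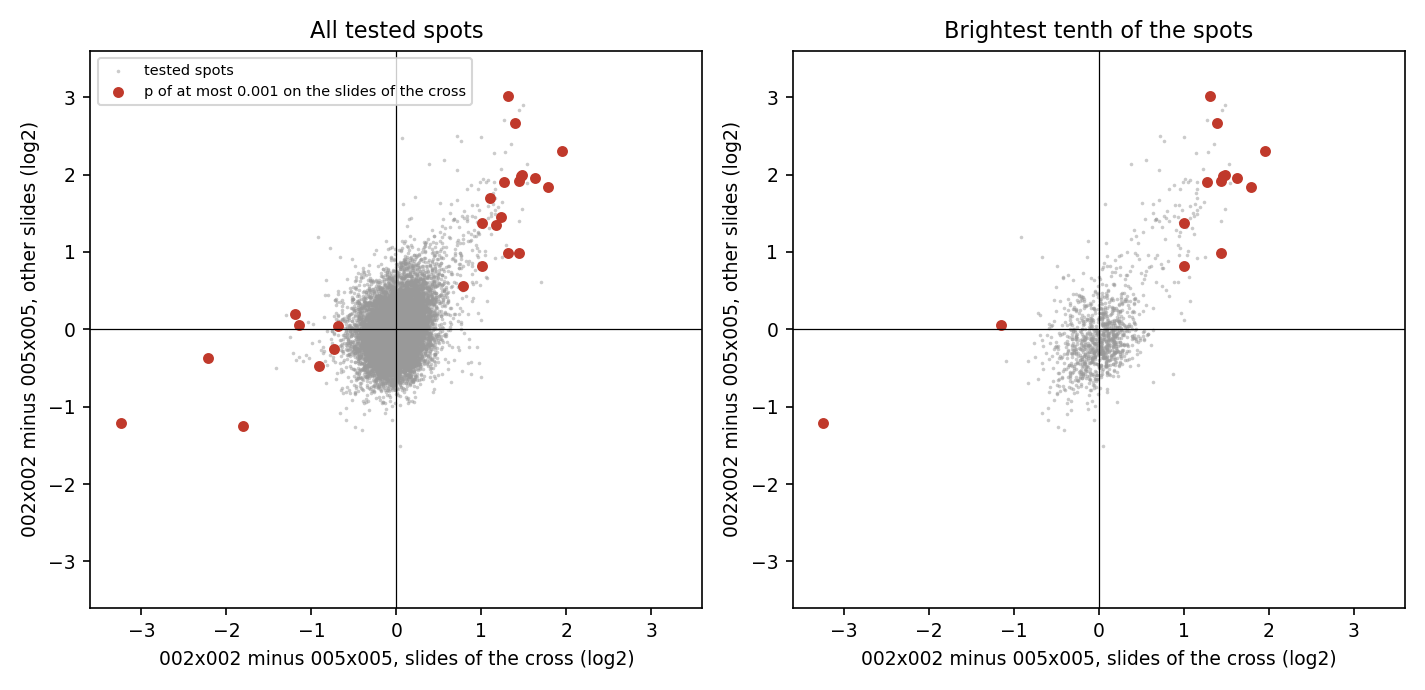
Log2 difference of 002x002 minus 005x005 on the 12 slides of the cross (horizontal axis) and on the 68 other slides (vertical axis), for all 11838 tested spots at the left and for the brightest 10% at the right. Red points are the spots with an unadjusted p of at most 0.001 on the slides of the cross; 22 of the 25 have the same sign on both axes, and in the brightest 10% the points extend towards the upper right (r = 0.678).

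Over all spots, the line difference on the slides of the cross and that on the other slides had a Pearson correlation of 0.385 and a Spearman correlation of 0.265, and 59.4% of spots had the same sign. These correlations run across spots, which share slides and are not independent replicates, and are given as descriptions. The correlation was highest in the brightest spots, while the share of signs in common varied little between groups of 10%. The highest deposited value of a channel ran from 14.4 to 23.45 over the 24 channels, so the scale of bright spots differed between slides. Its part in the correlation was not tested. In the 9 dimmer groups of 10% of the spots r lay between 0.113 and 0.411, in the brightest 10% it was 0.678, and in the brightest 200 spots, with a mean value of 14.8 or more, it was 0.877 with 84.5% of signs shared. Over the 10 groups the share of common signs ran from 53.4% to 61.7%, which was that of the brightest 10%. The median line difference of a group ran from -0.05 to 0.04 on the slides of the cross and from -0.11 to 0.01 outside; the brightest 10% had the 0.04 and the -0.11. Without slide 29 the correlation over all spots was 0.239 and without slide 476 it was 0.461. Without slide 1, r was 0.362 over all spots and 0.690 in the brightest 10%.

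**Figure D3:**
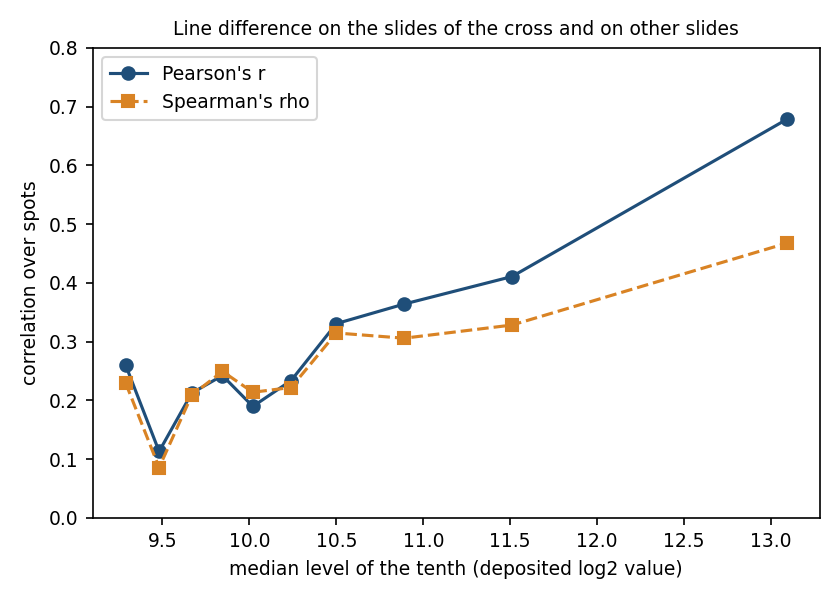
Correlation over spots between the line difference on the slides of the cross and on the other slides (vertical axis), for 10 groups of spots ordered by their mean deposited log2 value (horizontal axis, median of the group). Circles are Pearson's r and squares are Spearman's rho; both are lowest in the second dimmest group, 0.113 and 0.0856, and highest in the brightest, 0.678 and 0.467.

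Of the 11838 spots, 25 had an unadjusted p of at most 0.001 on the slides of the cross, 17 higher and 8 lower in 002x002. On the other slides 22 kept their sign and 15 had an unadjusted p under 0.05 in the same direction (60%), against 5.30% of all spots with such a p in the same direction as on the slides of the cross. The directions were unequal. Among the spots higher in 002x002 all 17 kept their sign and 13 had an unadjusted p under 0.05 outside, while among the 8 lower ones 5 kept their sign and 2, the pair of spots of BG841578, had such a p. The 17 higher spots were bright, with mean values from 10.72 to 15.94, and 14 of the 25 belonged to the brightest 10%. Their differences ran from 0.78 to 1.95 on the slides of the cross and from 0.56 to 3.02 outside.

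AI855309 had the largest difference of the higher spots on the slides of the cross, 1.95 ± 0.42 (adjusted p = 0.420), and 2.30 ± 0.98 outside. AI657289 had the largest outside, 3.02 ± 0.81 (unadjusted p = 0.000389), with 1.31 ± 0.28 on the slides of the cross. Others of the same kind were AI734804 at 1.63 and 1.95, AI491403 at 1.48 and 2.00, AW066628 at 1.46 and 1.98, AI461544 at 1.44 and 1.92, and AI622307 at 1.39 and 2.67. Channel levels on the slides of the cross did not always follow these fitted differences. At AI855309 the median level was 3.03 in 002x002 and 4.02 in 005x005. Medians were also lower in 002x002 at AI734804 (3.39 against 5.69) and AI622307. They were higher in 002x002 at AI657289, AI491403, AW066628 and AI461544. Levels of the lines come from different slides, while the fit used ratios within slides. The 3 spots that did not keep their sign were AW017838, AW018114 and AI979693, all lower in 002x002 on the slides of the cross. They differed by -1.19, -1.15 and -0.69 there and by 0.20, 0.06 and 0.04 outside. Without slide 1, and with its channels exchanged, the counts of 22 and 15 of the same 25 spots did not change. The outside values hold no slide 1 and the 25 spots were chosen with it. These counts could therefore change only where the sign of a fitted difference turned, and they say little about slide 1. Spots chosen anew at the same p numbered 19 without slide 1, of which 18 kept their sign and 11 (57.9%) had an unadjusted p under 0.05 outside in the same direction, and 16 with the channels exchanged, of which 16 and 9 (56.3%) did. The choice was also made the other way round. Outside, 12 of 11838 spots had an unadjusted p of at most 0.001 (limma), about as many as that limit would pass if no spot differed. All 12 had the same sign on the slides of the cross, against 59.4% of all spots. An unadjusted p under 0.05 was found there at 4 of them, against 4.97% of all spots.

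At the same 25 spots the fitted level of 005x002 lay between those of the lines at 25 and that of 002x005 at 20. Since the line difference on these slides was measured through the hybrids, this is a description of the spots chosen and no test. The share of all tested spots with a hybrid between the lines was not counted. With the channels of slide 1 exchanged the counts were 23 and 16, and without slide 1 they were 25 and 21. At the 17 spots higher in 002x002 the median line difference was 1.31, and the medians relative to 005x005 were 0.21 in 002x005 and 0.59 in 005x002, below the midpoint. At BM073177 both hybrids were at the level of 002x002, and at AI629767, with a line difference of 1.23, they were also above the midpoint, at 0.76 and 0.83. In the 8 lower spots the median line difference was -1.17, with 002x005 at -0.74 and 005x002 at -0.50.

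The hybrid 002x005 was below 005x002 at all 25 of these spots, with a median difference of -0.40 and a range of -0.82 to -0.0003. In the tested spots as a whole 002x005 was below 005x002 at 48.7%, and in the brightest 10% at 30.4%. Without slide 1 it was below at 24 of the 25, and with the channels of slide 1 exchanged at 20, where the share in the brightest 10% was 34.0%. None of the 25 passed the adjusted test of the reciprocal difference (smallest adjusted p = 0.996), and 8 had an unadjusted p under 0.05. All spots come from the same 12 slides, so the 25 signs are not 25 independent observations. Where the spots were chosen outside the cross at an unadjusted p of at most 0.01, 002x005 was lower at 62 of the 90 spots higher in 002x002 and at 30 of the 57 lower ones.

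**Figure D4:**
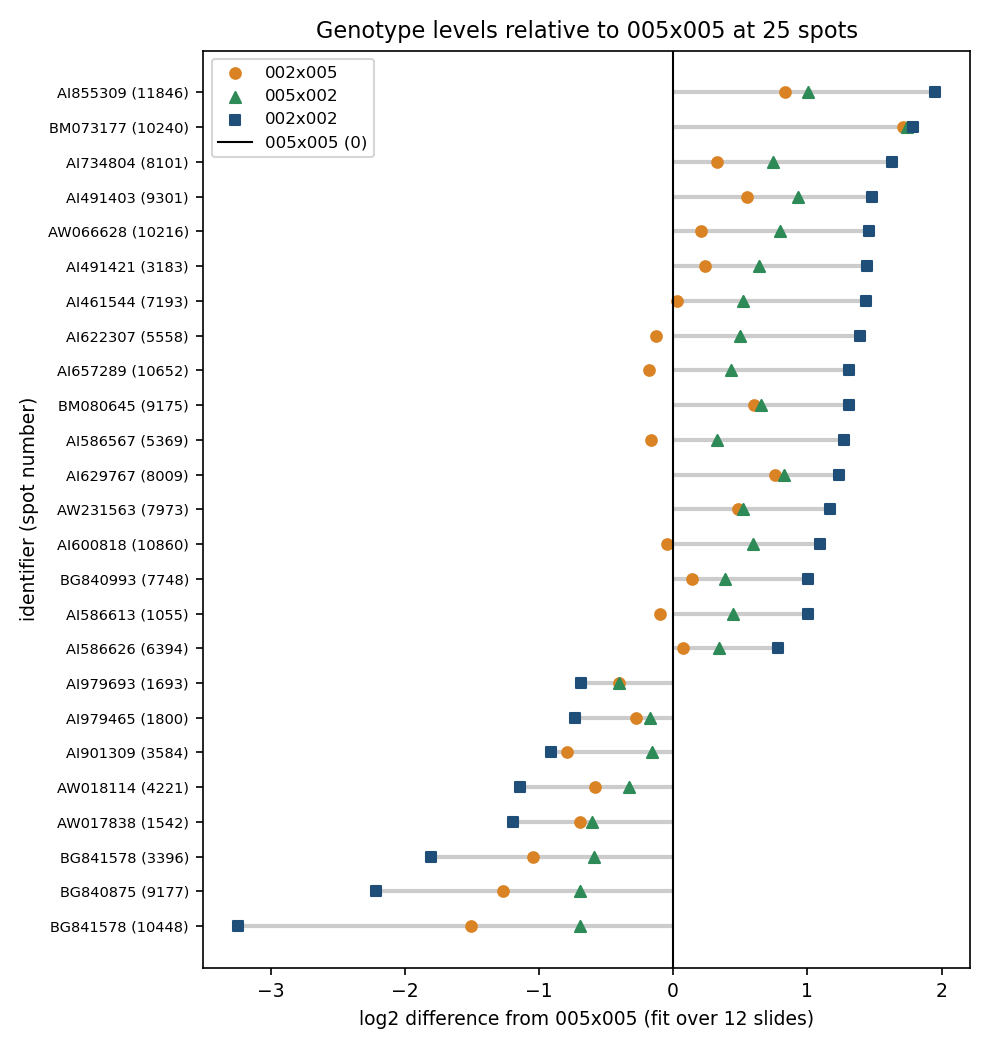
Fitted level of 002x005 (orange circles), 005x002 (green triangles) and 002x002 (blue squares) relative to 005x005 (black line at 0), in log2 units, for the 25 spots with an unadjusted p of at most 0.001 between the lines. The green triangles lie between the lines at 25 spots and the orange circles at 20, and each circle lies left of its triangle; at BM073177 all 3 lie between 1.71 and 1.79.

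Spots chosen by the outside slides alone gave a view of the hybrids with a choice that used none of their slides. Of the spots with an unadjusted p of at most 0.01 outside, 90 were higher in 002x002, by a median of 1.05 outside and 0.34 on the slides of the cross. There 002x005 was above 005x005 by a median of 0.10 and 005x002 by 0.23, and the median deviations from the midparent value were -0.045 for 002x005 and 0.02 for 005x002. The other 57 were lower in 002x002, with medians of -0.73 outside and -0.14 on the slides of the cross. At these the medians relative to 005x005 were -0.10 in 002x005 and -0.12 in 005x002, and the deviations from the midparent value were -0.03 each. Over all tested spots the median deviations were -0.003 and -0.01.

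The design of the study was optimised for non-additive effects, and each hybrid was set against the mean of its parents. For 002x005 no spot was called (0%; smallest adjusted p = 0.529, limma). Before adjustment, 353 of 11838 (2.98%) were under 0.05, 174 above and 179 below the midparent value. The estimates were small: 99.3% of spots lay within 0.5 of the midparent value, 6 lay beyond 1, and the median of the 95% intervals reached 0.26 to either side. At a spot of typical SE, an estimate smaller than that did not reach an unadjusted p under 0.05, and a call after adjustment needed a larger one.

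The spot with the smallest p in 002x005 was AW331031, at -0.75 ± 0.13 (adjusted p = 0.529). Against 002x002 its ratios were -1.04 and -1.69, and against 005x005 they were -0.46, -0.69 and 0.14. The larger ratios were thus those of both slides with 002x002. AI600658 was at -1.04 ± 0.20 and AI657289 at -0.84 ± 0.17 (adjusted p = 0.529 each). At AI657289 the ratios against 002x002 were -1.40 and -1.90 and those against 005x005 0.29, -0.57 and 0.10, so 002x005 was at the level of 005x005, the lower line of this spot. Above the midparent value were BM073177 at 0.82 ± 0.16, BE056260 at 0.41 ± 0.12 and BE129888 at 0.50 ± 0.14 (adjusted p = 0.529, 0.974 and 0.984). All 5 slides of BE056260 had ratios above 0, from 0.19 to 0.95.

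For 005x002 no spot was called either (0%; smallest adjusted p = 0.870). The unadjusted p was under 0.05 at 616 spots (5.20%), 267 above and 349 below. No estimate lay beyond 1, and the median 95% interval reached 0.27 to either side. BM073177 again had the smallest p above the midparent value, at 0.85 ± 0.17, followed by AI737287 at 0.47 ± 0.11 and BG842075 at 0.51 ± 0.13 (adjusted p = 0.870 each). AI737287 was above the lines on all 5 slides, by 0.30 to 0.72, and on 4 of 5 with the ratio of slide 1 (0.72) turned. Of these 5 slides only slide 476 had 005x002 in Cy5. Below were BM078441 at -0.41 ± 0.09, AI770749 at -0.52 ± 0.12 and BM339999 at -0.45 ± 0.11 (adjusted p = 0.870 each). These 3 had negative ratios on all 5 slides of 005x002, and on 4 of 5 with the ratio of slide 1 turned, and they were dim: BM339999 exceeded the edge spots in 5 of 24 samples, AI770749 in 11 and BM078441 in 14.

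With the mean of both hybrids set against that of both lines, the interval narrowed to 0.22 to either side and still no spot was called (0%; smallest adjusted p = 0.216), with 532 (4.49%) under 0.05 before adjustment, 171 above and 361 below. BM073177 came closest, at 0.83 ± 0.13. BG842075 at 0.47 ± 0.10 was above the line on 9 of 10 slides, and BM079864 at 0.45 ± 0.12 on 7 of 10, with the largest ratio, 1.69, on slide 476 (adjusted p = 0.927 each). Without slide 476 the value of BM079864 was 0.29. BM339999 at -0.34 ± 0.08 was below the line on all 10 slides, AI600658 at -0.71 ± 0.16 and AW331031 at -0.50 ± 0.11 on 7 of 10 (adjusted p = 0.927 each). With the ratio of slide 1 turned, these tallies became 8 of 10 above at BG842075 and BM079864, 9 of 10 below at BM339999, and 6 of 10 below at AI600658 and AW331031.

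BM073177 had the smallest p in the F test over the 4 genotypes. It was the only call, 1 of 11838 (0.00845%; adjusted p = 0.0113, limma), with 452 spots (3.82%) at an unadjusted p under 0.05. Its levels had medians of 2.04 in 002x005 and 2.72 in 005x002. In 002x002 they were 1.39, 2.05, 2.63 and 3.34, and in 005x005 they ran from -0.16 to 3.13 with a median of 0.43. The highest 005x005 sample was that of slide 1, where the 005x002 sample was also the highest of its group at 4.50.

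Ratios within slides set BM073177 apart more clearly than its levels. Over 005x005 the hybrid 002x005 was higher by 1.97, 2.19 and 1.12, and 005x002, in Cy3 on each of its slides here, by 1.35, 1.81 and 1.72. The 1.35 of slide 1 would be -1.35 with its channels exchanged. Over 002x002 the ratios lay on both sides of 0, at 0.09 and -0.26 for 002x005 and -0.53 and 0.45 for 005x002. The direct ratios of 002x005 over 005x002 were -0.52 and 0.43. In the fit, 002x005 was 1.71, 005x002 1.74 and 002x002 1.79 above 005x005, so the midparent deviations of 0.82 and 0.85 place both hybrids at the higher line. With the channels of slide 1 exchanged, or without slide 2, 36 or 60, the F test had no call. Without slide 33 the deviation of both hybrids from both lines was 0.94 and passed (adjusted p = 0.0446).

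**Figure D5:**
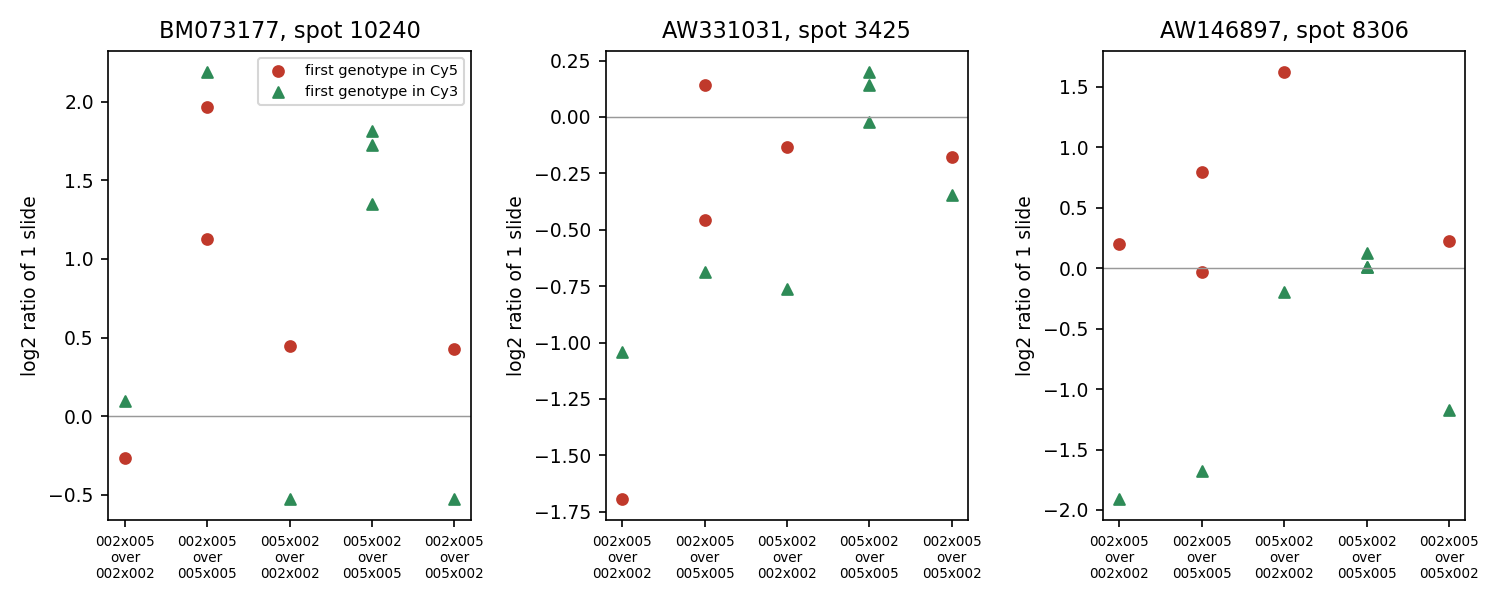
Log2 ratio of every slide (vertical axis) at 3 spots, grouped by the pair of genotypes on the slide; red circles have the first genotype in Cy5 and green triangles in Cy3. At BM073177 all 6 ratios of a hybrid over 005x005 lie at or above 1.12 (slide 1 at 1.35, or -1.35 with its channels exchanged) and those over 002x002 between -0.53 and 0.45, and at AW146897 the red circles lie above the triangles of the same pair wherever both are present.

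No hybrid was called above both lines or below both. Of 23676 tests, 1 for each hybrid at each spot, none was called (0%; smallest adjusted p = 1), and 72 (0.304%) had an unadjusted p under 0.05, 30 above and 42 below the range of the lines. The test takes the weaker of the 2 hybrid-to-line differences, so a hybrid must clear both lines to pass.

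No spot was called between the reciprocal hybrids (0%; smallest adjusted p = 0.932). An unadjusted p under 0.05 was found at 351 spots (2.97%), 179 higher and 172 lower in 002x005. The median 95% interval reached 0.32 to either side, and 98.5% of the estimates lay within 0.5. The largest estimate over all spots was 1.29 higher in 002x005, and 3 spots lay beyond 1 in each direction. Of the 6 spots named, the 3 with the larger estimates were lower in 002x005: AW065614 at -1.13 ± 0.25, AW146897 at -1.05 ± 0.20 and AI861323 at -0.93 ± 0.18 (adjusted p = 0.996, 0.932 and 0.932). Higher in 002x005 were AW126610 (spot 11115) at 0.46 ± 0.13, AI600330 at 0.44 ± 0.12 and BG841620 (spot 11208) at 0.36 ± 0.11 (adjusted p = 0.996 each).

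At the 3 spots lower in 002x005, the ratios on slides with 002x005 in Cy3 lay below those with it in Cy5. On slide 471, where 002x005 was in Cy3, its ratios over 005x002 were -1.17 at AW146897, -1.21 at AI861323 and -1.14 at AW065614. On slide 919, with the dyes swapped, they were 0.23, -0.003 and 0.001. Against 002x002 the same 3 spots gave -1.91, -1.90 and -1.97 with 002x005 in Cy3 and 0.20, 0.08 and 0.25 with it in Cy5. Against 005x005 AW146897 gave -1.68 with 002x005 in Cy3 and -0.03 and 0.80 with it in Cy5. For 005x002 against a line, slide 476 with that hybrid in Cy5 gave 1.62 at AW146897. The 4 slides that set it in Cy3 against a line lay between -0.19 and 0.13. The 3 spots exceeded the edge spots in 9, 11 and 11 of 24 samples. At the 3 spots higher in 002x005 both direct slides were positive, with 0.38 and 0.27 at AW126610, 0.29 and 0.55 at AI600330 and 0.31 and 0.21 at BG841620. These exceeded the edge spots in 13, 22 and 9 of 24 samples. AW126610 and BG841620 were each printed at 2 spots, and only the spot named above is given. The dye term itself had no called spot (smallest adjusted p = 0.0743).

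The 8 identifiers with a gene symbol were LOC100500995, a long non-coding RNA (AW400087), LOC100283464, a transcribed pseudogene (AI714808), and the protein-coding genes LOC100275582 (AI920398), LOC100272873 (AI691686), LOC100191184 (AI665898), LOC542198 (AI987507), LOC100279628 (AW257883) and LOC100383044 (AI901738). Over their 10 spots and 5 comparisons the differences ran from -0.50 to 0.50. None of the 50 values had an unadjusted p under 0.05 (smallest 0.0520), and the smallest adjusted p was 0.873.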

How the data were processed

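The deposited value table holds 1 log2 value per spot and sample. Per the deposited notes, each labelled probe was scanned up to 6 times at rising gain and 1 scan was normalized. The scale was set against the scanner intensities, also deposited, and followed log2 with a stretch that differed between channels. Identifiers lie in the row order of the value table, and the intensities were turned by print blocks to match it (rank correlation 0.992 with the value table in the channel checked, 0.0583 before). Exact zeros (16 values of the cross) were treated as missing. The 190 unnamed spots and 132 spots of 11 identifiers printed 12 times were not tested. The slide was a fixed block, through the log2 ratio of its channels, with dye as covariate. R 4.3.3 and limma 3.58.1 (lmFit, eBayes; 8 residual and 5.96 prior degrees of freedom) gave the tests, checked on simulated data. Dyes were taken from the titles, but on slide 930, titled Cy3 in both samples, 1 sample was taken as Cy5 from its label field. Title and label field disagree in 20 samples on 11 slides, all outside the cross; without these the outside fit gave the same counts for the 25 spots (22 and 15). Per the series text each sample is an independent biological replicate. The outside fit left out slides 288 and 289. For each comparison, spots named were the called ones or, where fewer than 3 were called in a direction, the 3 with the smallest p. AI855309 and the other spots of the group of 25, and the spots of repeated results, were named after their values were seen. The members, the lists and the checks were chosen with earlier results of these data known. The number of slides limits the precision. Sequences of the spots were not used here.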

Additional observations from a re-analysis of the deposited data

How the results depend on the processing

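In 24 other settings no direction turned at the named spots and those of the group of 25, except on the outside slides alone, where AW017838, AW018114 and AI979693 were 0.199, 0.0596 and 0.0375. No spot was called in 002x005 or 005x002 against the midparent value, between the reciprocal hybrids or outside the range of the lines in any setting that gave a value. The count of called spots for 002x002 minus 005x005 was 1, and became 3 with each slide centred on its median, 2 with all slides and 16 genotypes in one fit, 39 (29 higher, 10 lower) with the slide as a random block over all samples of the 4 genotypes, 36 (31 higher, 5 lower) with array quality weights, 4 in the brighter 50% of the spots and 4 without the dye term. It was 0 without slide 1, with its channels exchanged, from the scanner intensities (normexp, offset 50, and loess), on the slides of the lowest number range, on the outside slides alone and with print blocks centred, a setting chosen after seeing the data, as were the settings of the F test. The scanner setting read slide 1 by its labelled dyes, while the deposited values there followed the other channel. It was therefore not separate from the exchange of slide 1. The count ran from 0 to 14 with single slides left out, 14 without slide 476, 6 without slide 27, 4 without slide 60 and 3 without slide 33. The count of the F test was 1, and was 3, 21, 3, 2 and 2 with all slides, the random block, weights, brighter spots and no dye term, 0 with slide 1 exchanged, scanner intensities, the lowest number range and print blocks centred, and 0 to 2 with single slides left out (2 without slide 27 or 474). Both hybrids against both lines had 1 call, BM073177 at 0.90 (adjusted p = 0.0145), with the random block, and 0 to 1 with single slides left out. Of the 36 calls with weights, 33 had the same direction outside and 20 (55.6%) an unadjusted p under 0.05 there; 15 were shared with the random block. The causes were not tested. BM073177 passed for the line difference in 8 settings (1.33 to 1.99). No paired analysis was possible because no replicate number is shared between genotypes, apart from the pairing of 2 samples on a slide, which the ratios already use as the block.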

Other observations

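The quality weights that limma gave the 12 slides were uneven, from 0.40 on slide 27 and 0.43 on slide 36 to 3.47 on slide 26 and 4.27 on slide 33. The log ratios of slides 33, 471 and 26 had the smallest spread over spots, with SDs of 0.18, 0.19 and 0.22, and those of slide 27 the largest, 0.60. With these weights 20 of the 36 spots called between 002x002 and 005x005 belonged to the brightest 10%.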
